A study of Rattus norvegicus with 14 samples.

Results

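The effect of JQ1, a small molecule that displaces BET proteins from acetylated chromatin, was measured at 6 h of phenylephrine (PE) in neonatal rat ventricular myocytes. The members are 5 of the 14 arrays, chosen by their titles: 3 of cells given JQ1 and PE, and 2 of cells given the vehicle DMSO and PE. All 13184 measured genes were compared, each by the brightest probe set of its symbol. The myocytes were isolated from ventricles of 2-day-old Sprague-Dawley rats, pre-plated to remove other cells and kept without serum, per the labels' protocols. Both groups received 100 µM PE, which stimulates alpha1-adrenergic receptors and drives hypertrophic growth of these cells in culture, so the comparison shows JQ1 on top of PE and not JQ1 alone. The treatment protocol has JQ1 or DMSO added 6 h ahead of PE and the series' design text has PE first, so how long the cells saw JQ1 is not settled. For JQ1 no concentration is given in the sources used here. Another 9 arrays, used beside these, were DMSO for 90 min without PE (unstimulated, n = 3), and 48 h of PE with DMSO (n = 3) or JQ1 (n = 3). The unstimulated arrays differ from the PE arrays in time as well, so beside them PE and time cannot be told apart. The labels do not say whether a group's arrays hold separate cultures; p-values therefore describe only array-to-array spread, which may be technical.

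BET proteins, among them Brd2 and Brd3, read acetylated lysines on histone tails through paired bromodomains. They help to bring the kinase complex P-TEFb, made of Cdk9 and a cyclin T, to promoters and enhancers, where it releases RNA polymerase II that has paused soon after initiation. Hexim1 holds P-TEFb inactive in a small nuclear RNA particle. JQ1 occupies the acetyl-lysine pocket, and the series asks how BET bromodomains act on transcription in the failing heart. In myocytes PE first induces immediate early transcription factors and later a fetal gene programme with natriuretic peptides and skeletal actin.

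JQ1 changed a large part of the measured genes within this time, and the large changes were mostly falls. Of 13184 genes, 7156 (54.3%) passed an adjusted p of 0.05 in limma, 3362 raised (25.5%) and 3794 lowered (28.8%). At least 2-fold changes were called for 653 genes (4.95%): 163 raised (1.24%) and 490 lowered (3.72%). The DMSO and JQ1 arrays did not overlap for 8707 genes (66.0%), and 7113 genes were both called and not overlapping. Pearson's r across genes was 0.998 to 0.9986 within groups, and between groups 0.9811 to 0.9817. The 2 DMSO arrays differed from each other by over 2-fold for 2 genes and by over 1.5-fold for 45. The balance of small changes depended on the scaling: the array medians were 8.01 and 8.08 with DMSO and 7.96, 7.95 and 7.92 with JQ1. Centring every array on its median moved the median difference from 0.00 to 0.099 and gave 4711 raised and 2896 lowered genes, so 38.1% of calls were lowered in place of 53%. At least 2-fold changes then were 233 raised and 396 lowered.

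**Figure D1:**
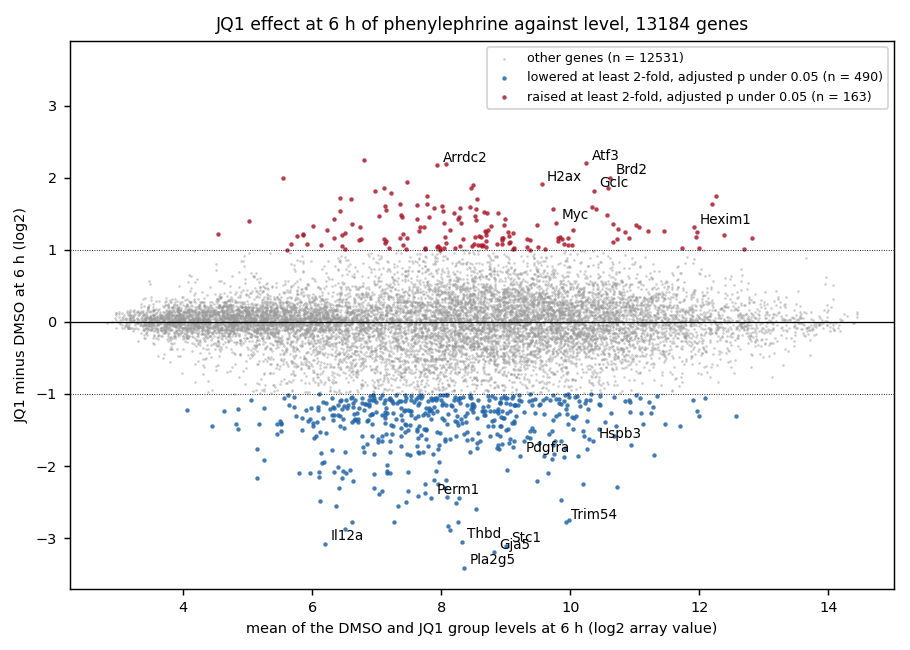
Each point is 1 of 13184 genes: the x axis is the mean of the DMSO and JQ1 group levels at 6 h (log2 array value), the y axis the JQ1 minus DMSO difference (log2), and dotted lines mark 2-fold. Coloured points are the 163 raised and 490 lowered genes called at 2-fold or more, and the largest falls reach lower than the largest rises reach up.

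Levels below are log2 array values, given for the 2 DMSO and then the 3 JQ1 arrays, and the value in brackets is the log2 difference, JQ1 minus DMSO, ± its standard error (SE) in the limma fit over all arrays. A group mean under 6.23, the 30th percentile of gene means, is called dim, because changes that start or end there have an uncertain size. Counts of list members below are to be read beside the shares over all genes, 25.5% raised and 28.8% lowered. Among the genes named below, the DMSO and JQ1 arrays overlapped for Fos, Nppa, Ccn2 and Clcf1 and did not overlap for the others.

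The largest rises took in histone genes, a stress transcription factor and a neuropeptide. H3c1, a replication-type histone H3 gene, read 5.52 and 5.84 with DMSO and 7.81, 7.91 and 8.02 with JQ1 (2.24 ± 0.13, adjusted p = 1.62e-08), with dim DMSO arrays. Atf3, an AP-1 family factor of the stress response, read 9.23 and 9.06 with DMSO and 11.51, 11.24 and 11.31 with JQ1 (2.20 ± 0.089, adjusted p = 9.54e-10). Trh, which encodes thyrotropin-releasing hormone, read 6.95 and 7.0 with DMSO and 9.10, 9.32 and 9.09 with JQ1 (2.19 ± 0.11, adjusted p = 4.53e-09). In each of the 3 the JQ1 arrays lay far closer to each other than to either DMSO array, which choosing the largest rises without overlap favours. Arrdc2, an arrestin-domain gene, read 6.79 and 6.91 with DMSO and 9.13, 8.99 and 8.92 with JQ1 (2.17 ± 0.072), and Brd2 itself 9.54 and 9.70 with DMSO and 11.66, 11.65 and 11.57 with JQ1 (2.0 ± 0.054, adjusted p = 4.55e-11), a 4.01-fold rise. The other 10 of the 15 largest rises were Pgbd5 (dim with DMSO), Nudt6, the histone genes H2ax and H2ac25, Glcci1, Polg2, Nars2 and Abhd5 (both dim with DMSO), Gclc and Fzd3. Their differences ran from 1.79 ± 0.074 for Fzd3, a Wnt receptor, to 2.0 ± 0.14 for Pgbd5. Polg2 is the accessory subunit of the mitochondrial DNA polymerase, Abhd5 co-activates triglyceride breakdown, and Gclc is the catalytic subunit of glutathione synthesis.

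The largest falls exceeded 8-fold. Pla2g5, a secreted phospholipase A2, read 10.10 and 10.02 with DMSO and 6.60, 6.67 and 6.68 with JQ1 (-3.41 ± 0.068, adjusted p = 1.57e-11), a 10.6-fold fall. Gja5, which encodes the conduction-system gap junction protein connexin 40, read 10.30 and 10.52 with DMSO and 7.29, 7.07 and 7.27 with JQ1 (-3.20 ± 0.078, adjusted p = 2.39e-11). Stc1, a secreted glycoprotein hormone, read 10.58 and 10.55 with DMSO and 7.43, 7.59 and 7.33 with JQ1 (-3.11 ± 0.067). For each of the 3 the gap between the groups was many times the spread within them, which choosing the largest falls without overlap favours. Il12a, an interleukin-12 subunit gene, read 7.83 and 7.64 with DMSO and 4.56, 4.87 and 4.55 with JQ1 (-3.08 ± 0.14), with dim JQ1 arrays. Thbd, the endothelial anticoagulant receptor thrombomodulin, read 9.81 and 9.88 with DMSO and 6.88, 6.71 and 6.79 with JQ1 (-3.05 ± 0.075). Kcnj11, the pore subunit of the ATP-sensitive potassium channel, went from 8.64 and 8.68 to dim levels of 5.78, 5.98 and 5.87 (-2.78 ± 0.062). Trim54, a muscle ring-finger ubiquitin ligase, went from 11.27 and 11.38 to 8.71, 8.43 and 8.48 (-2.78 ± 0.071). The remaining 8 of the 15 were Tmem196, the interferon-inducible GTPase genes Gbp4 and Igtp, the matricellular gene Ccn5, Lrrc4b, Gask1b, Serpinb9 and the antiviral helicase gene Ddx60, from -2.56 ± 0.27 to -2.89 ± 0.12. Gbp4, Igtp and Ddx60 ended dim. Fainter probe sets differed for some: Gja5 (-0.28), Thbd (-0.08), Kcnj11 (-0.05) and Lrrc4b (-0.10 and 0.07) each had at least 1 further probe set whose difference did not pass, all dim but 1 of Lrrc4b.

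The promoter windows of the most raised and most lowered genes are shown so that the start regions behind these values can be read. They come from RefSeq on the GRCr8 build, cover the 250 bases before the annotated start, 5′ to 3′, and are those of the 3 genes in each direction with the largest difference that have 1 window in the table. Capitals mark matches on either strand to the motifs searched: AP-1 (TGAGTCA or TGACTCA), CRE (TGACGTCA), E-box (CACGTG), the TATA box (TATAAA), SP1/KLF (GGGCGG), the CCAAT box (CCAAT) and NFKB1 (GGGACTTTC or GGGAATTTC).
Trh, raised, chr4:126301763-126302012, minus strand: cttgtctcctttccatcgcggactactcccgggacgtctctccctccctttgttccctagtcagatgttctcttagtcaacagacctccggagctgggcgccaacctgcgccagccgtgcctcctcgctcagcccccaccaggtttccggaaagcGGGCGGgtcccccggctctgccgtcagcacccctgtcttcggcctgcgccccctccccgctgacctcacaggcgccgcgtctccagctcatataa
Arrdc2, raised, chr16:18635633-18635882, plus strand: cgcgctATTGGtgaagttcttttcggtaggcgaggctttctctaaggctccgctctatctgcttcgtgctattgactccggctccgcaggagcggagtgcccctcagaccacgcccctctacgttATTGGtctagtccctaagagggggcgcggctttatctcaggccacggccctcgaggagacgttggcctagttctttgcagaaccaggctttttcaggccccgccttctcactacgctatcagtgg
Brd2, raised, chr20:4729829-4730078, plus strand: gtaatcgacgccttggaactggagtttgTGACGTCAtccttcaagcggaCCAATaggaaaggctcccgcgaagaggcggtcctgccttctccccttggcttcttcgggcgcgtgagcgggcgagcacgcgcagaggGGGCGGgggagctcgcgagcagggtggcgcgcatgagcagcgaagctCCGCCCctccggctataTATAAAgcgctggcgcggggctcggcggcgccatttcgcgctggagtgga
Pla2g5, lowered, chr5:156345923-156346172, minus strand: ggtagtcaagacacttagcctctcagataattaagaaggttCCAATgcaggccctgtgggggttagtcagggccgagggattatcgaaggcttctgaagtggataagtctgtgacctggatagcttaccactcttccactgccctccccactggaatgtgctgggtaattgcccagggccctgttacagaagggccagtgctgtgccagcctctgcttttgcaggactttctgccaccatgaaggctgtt
Gja5, lowered, chr2:187290977-187291226, plus strand: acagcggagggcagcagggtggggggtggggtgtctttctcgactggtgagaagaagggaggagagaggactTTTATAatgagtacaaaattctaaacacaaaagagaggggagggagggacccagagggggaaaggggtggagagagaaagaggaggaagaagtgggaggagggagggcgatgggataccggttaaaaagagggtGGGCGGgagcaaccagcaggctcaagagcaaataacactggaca
Il12a, lowered, chr2:155275484-155275733, plus strand: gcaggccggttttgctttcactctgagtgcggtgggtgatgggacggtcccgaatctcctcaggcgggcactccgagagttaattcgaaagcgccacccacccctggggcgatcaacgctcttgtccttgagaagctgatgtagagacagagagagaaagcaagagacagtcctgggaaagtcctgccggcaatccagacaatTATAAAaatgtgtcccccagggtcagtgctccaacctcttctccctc

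Windows of 300 bases, with 50 after the start, were matched by symbol for 10893 of the 13184 genes, for 134 of the 163 raised and 366 of the 490 lowered at least 2-fold. Letters of the SP1/KLF motif stood in 75.4% of the raised windows and 43.4% of the lowered windows, beside 58.2% of all 10893. For the TATA box the shares were 9.70% and 12% beside 8.35%, and for AP-1 4.48% and 6.01% beside 3.80%. CRE letters stood in 4.48% and 1.91% beside 2.92%, and the CCAAT box in 40.3% and 35.8% beside 37.4%. Of the 15 most raised genes 11 had a window, 8 with the SP1/KLF letters, and of the 15 most lowered 11, 4 with them. The Brd2 window holds CRE and CCAAT letters, SP1/KLF letters on each strand and TATA letters from 50 to 45 bases before the start, and the Il12a window TATA letters from 47 to 42. Matches to different motifs may overlap. A match is a run of letters in this window and shows no binding.

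Genes of the BET and elongation machinery were mostly called, in both directions: of 30 measured, 18 rose and 10 fell (median 0.26). Hexim1, the P-TEFb inhibitor, read 11.21 and 11.30 with DMSO and 12.54, 12.59 and 12.58 with JQ1 (1.31 ± 0.045, adjusted p = 2.75e-10), a 2.49-fold rise. Its paralog Hexim2 moved the other way, from 8.39 and 8.61 to 7.60, 7.55 and 7.58 (-0.93 ± 0.058). Cdk9 read 10.97 and 11.04 with DMSO and 11.34, 11.34 and 11.27 with JQ1 (0.31 ± 0.058, adjusted p = 0.000526), while with all probe sets averaged its difference was 0.08 and did not pass. Brd3 did not pass at -0.12 ± 0.059, adjusted p = 0.11. Mepce, which caps the small nuclear RNA of the P-TEFb particle, rose by 0.63 ± 0.05, Ctr9 of the PAF elongation complex by 0.69 ± 0.05 and the chromatin protein gene Hmga1 by 0.80 ± 0.067. Jmjd6, a JmjC-domain hydroxylase, fell by 0.55 (SE 0.050).

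Clustered, replication-type histone genes were mostly raised: 6 of 7 rose and none fell (median 0.80), and 3 rose at least 2-fold. H1f2 read 12.10 and 12.27 with DMSO and 13.24, 13.17 and 13.19 with JQ1 (1.01 ± 0.057) and H2ac25 9.56 and 9.74 with DMSO and 11.46, 11.55 and 11.51 with JQ1 (1.86 ± 0.059). Of 5 variant histone genes 4 rose, among them H2ax at 8.59 and 8.61 with DMSO and 10.56, 10.52 and 10.46 with JQ1 (1.91 ± 0.063, adjusted p = 2.13e-10) and H1f10 (1.56 ± 0.11). Histone genes are near-identical copies of one another, so a probe set may read several, which was not tested.

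Myc, the growth factor-responsive transcription factor often lowered by BET inhibitors in blood cancer cells, was higher with JQ1 here. It read 9.04 and 9.16 with DMSO and 10.59, 10.43 and 10.39 with JQ1 (1.37 ± 0.087, adjusted p = 4.59e-08), and 8.52, 8.32 and 8.58 in the unstimulated cells. Of 12 genes of its network 4 rose (33.3%, beside 25.5% of all genes), among them its antagonist Mxd1 (1.17 ± 0.095). Mlx fell (-0.22 ± 0.044), as the only member (8.33%, beside 28.8%).

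Immediate early genes, the first transcription factors and regulators switched on by a stimulus, were mostly higher with JQ1: 20 of 30 rose and 4 fell (median 0.42). Without the second DMSO array 20 rose and 2 fell. Jun, the AP-1 partner, read 10.15 and 10.07 with DMSO and 11.30, 11.18 and 11.19 with JQ1 (1.11 ± 0.056, adjusted p = 6.02e-09), while unstimulated cells read 10.06, 10.13 and 10.14. Klf2 went from 9.57 and 9.42 to 10.56, 10.50 and 10.60 (1.06 ± 0.054), although its next brightest probe set differed by 0.24. Egr1, a zinc finger factor, rose by 0.77 ± 0.056, the nuclear receptor genes Nr4a1 by 0.51 ± 0.12 and Nr4a3 by 0.70 ± 0.089, Ccn1 by 0.90 ± 0.088 and Gadd45b by 0.80 ± 0.042. Nr4a3 read 6.73, 6.47 and 6.63 unstimulated and 9.34 and 9.41 with DMSO and 10.06, 10.04 and 10.12 with JQ1, so each step was upward. Fos did not pass: 11.20 and 11.17 with DMSO and 11.20, 11.07 and 11.14 with JQ1 (-0.05 ± 0.071, adjusted p = 0.603), both far above the unstimulated 8.98, 9.05 and 9.11. Mafk, a small Maf factor, fell from 10.39 and 10.39 to 9.86, 9.87 and 9.90 (-0.52 ± 0.05).

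**Figure D2:**
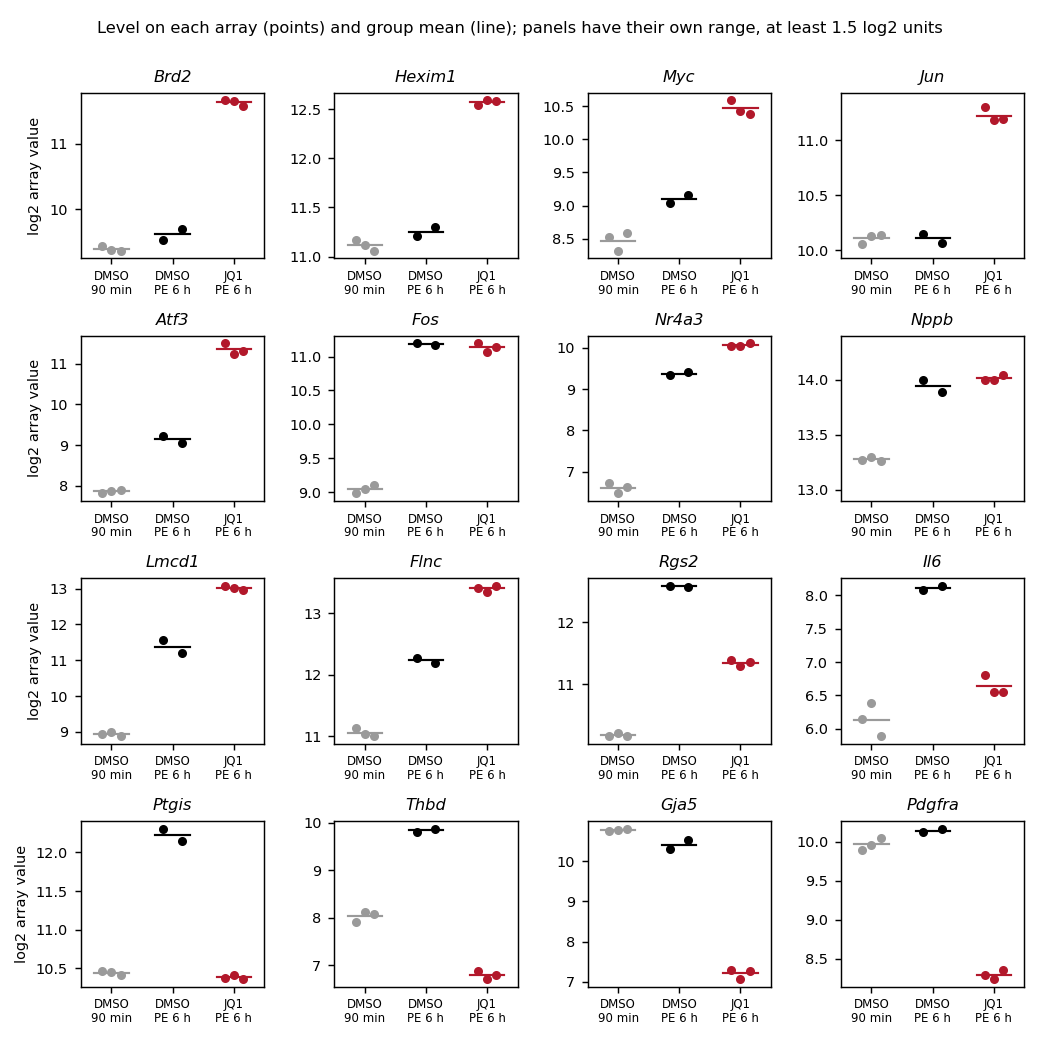
Levels of 16 genes (log2 array value, y axis) on each array of 3 groups: DMSO 90 min without PE (grey, n = 3), DMSO with PE 6 h (black, n = 2) and JQ1 with PE 6 h (red, n = 3), with a line at each group mean. JQ1 arrays sit above the DMSO arrays for Brd2, Hexim1, Myc, Jun, Atf3, Nr4a3, Lmcd1 and Flnc and below them for Rgs2, Il6, Ptgis, Thbd, Gja5 and Pdgfra. For Fos and Nppb the JQ1 and DMSO arrays lie side by side.

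Brakes on signalling did not move as 1 group. Of 16 feedback inhibitors of MAP kinase signalling 3 rose (18.8%, beside 25.5% of all genes) and 6 fell (37.5% beside 28.8%). With centred arrays 4 rose and 4 fell. Dusp2, a nuclear MAP kinase phosphatase, read 7.09 and 7.05 with DMSO and 8.44, 8.45 and 8.25 with JQ1 (1.31 ± 0.064), and Errfi1, an inhibitor of the EGF receptor, rose by 0.62 ± 0.066. Spry1 went from 9.78 and 9.80 to 8.89, 8.85 and 8.87 (-0.92 ± 0.046), and Ptprr fell between dim levels (-1.44 ± 0.078). Rgs2, which turns off Gq-coupled receptors, read 10.17, 10.22 and 10.16 unstimulated and 12.59 and 12.57 with DMSO and 11.39, 11.29 and 11.36 with JQ1 (-1.23 ± 0.062, adjusted p = 6.11e-09): the JQ1 arrays lie between the other groups. Rgs3 (-1.66 ± 0.058) and Rgs4 (-1.30 ± 0.069) fell too, while the arrestin-like gene Txnip, an inhibitor of thioredoxin and glucose uptake, rose from 11.70 and 11.87 to 12.97, 13.03 and 12.99 (1.21 ± 0.058).

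Receptors for adrenergic and vasoactive ligands were lowered more often than raised: 14 of 29 fell and 1 rose, the thrombin receptor gene F2r (0.18 ± 0.044). Without the first DMSO or the first JQ1 array 2 rose. Of the alpha1 receptors, the class PE acts on, Adra1b read 9.45 and 9.57 with DMSO and 8.22, 8.32 and 8.20 with JQ1 (-1.27 ± 0.058, adjusted p = 2.92e-09) and 11.02, 11 and 11.08 unstimulated. Adra1d fell to a dim level, 7.10 and 7.20 with DMSO and 4.78, 5.28 and 5.11 with JQ1 (-2.09 ± 0.11). The third alpha1 receptor gene, Adra1a, named here after its values were seen to complete the family, did not pass (-0.17 ± 0.13, adjusted p = 0.306). The sphingosine receptor gene S1pr3 went from 9.88 and 10.03 to 8.34, 8.21 and 8.39 (-1.65 ± 0.07), and Bdkrb2, the bradykinin receptor, from 8.30 and 8.57 to 7.10, 7.26 and 7.07 (-1.29 ± 0.13).

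Hypertrophic marker genes were raised more often than lowered at this time: 13 of 23 rose and 5 fell (median 0.24). Lmcd1, a LIM protein, read 8.95, 9.01 and 8.88 unstimulated, 11.56 and 11.21 with DMSO and PE, and 13.08, 13.01 and 12.97 with JQ1 and PE (1.64 ± 0.1, adjusted p = 3.43e-08). Xirp1, of the intercalated disc, read 10.68 and 10.46 with DMSO and 11.85, 11.73 and 11.90 with JQ1 (1.26 ± 0.07), and filamin C (Flnc) 12.28 and 12.20 with DMSO and 13.42, 13.35 and 13.45 with JQ1 (1.17 ± 0.05, adjusted p = 1.66e-09), beside 11.13, 11.04 and 11 unstimulated. For these 3 genes the order unstimulated, DMSO with PE, JQ1 with PE holds on every array. Skeletal actin (Acta1) went from 13.80 and 13.84 to 14.34, 14.32 and 14.34 (0.51 ± 0.033, adjusted p = 5.47e-08) and the growth factor gene Hbegf from 8.08 and 7.97 to 8.88, 8.85 and 8.82 (0.82 ± 0.048).

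The natriuretic peptide genes did not pass. Both read near the top of the range of array values, and whether differences are compressed there was not tested. The missing calls therefore do not show that JQ1 left these genes unchanged. Nppa read 14.22 and 14.16 with DMSO and 14.21, 14.21 and 14.18 with JQ1 (0.01 ± 0.037, adjusted p = 0.867), and Nppb 14 and 13.89 with DMSO and 14, 14 and 14.04 with JQ1 (0.07 ± 0.046, adjusted p = 0.229). The lowest JQ1 array and the higher DMSO array of Nppb read the same at this precision. With centred arrays both passed, at 0.11 and 0.17. Ccn2, a matricellular growth regulator, did not pass either (-0.02 ± 0.043, adjusted p = 0.783). Rcan1, the calcineurin target, read 12.52 and 12.41 with DMSO and 12.28, 12.24 and 12.22 with JQ1 (-0.21 ± 0.057, adjusted p = 0.00656), but its difference of -0.11 with centred arrays and of -0.16 without the first DMSO array did not pass. The cation channel gene Trpc6 fell from 7.68 and 7.46 to dim levels of 5.74, 5.42 and 5.23 (-2.10 ± 0.13). The catalytic subunit genes of calcineurin, the phosphatase that activates NFAT, rose in 3 cases, Ppp3cc (1.03 ± 0.047), Ppp3cb (0.46 ± 0.044, with 1 fainter probe set at 0.66 and 1 that did not pass at -0.04) and Ppp3ca (0.44 ± 0.057), while the inhibitor gene Rcan2 fell (-0.95 ± 0.039).

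Contractile genes went both ways, as measured genes did as a whole. Of 32 sarcomere genes 9 rose (28.1%, beside 25.5% of all genes) and 12 fell (37.5% beside 28.8%). With centred arrays 14 rose and 9 fell, and without the second JQ1 array 5 rose. Tcap, the titin cap, rose from 11.43 and 11.52 to 12.54, 12.50 and 12.48 (1.03 ± 0.04, adjusted p = 7.55e-10) and Lmod2, which lengthens thin filaments, by 0.74 ± 0.036. Myoz2, a Z-disc protein that binds calcineurin, fell from 13.25 and 13.19 to 11.93, 11.88 and 11.92 (-1.31 ± 0.043, adjusted p = 1.99e-10), and the M-band gene Myom1 from 10.87 and 10.90 to 9.65, 9.63 and 9.76 (-1.21 ± 0.056). Of the myosin heavy chains Myh7 read 13.92 and 13.97 with DMSO and 13.53, 13.44 and 13.50 with JQ1 (-0.46 ± 0.045, adjusted p = 2.03e-06), and Myh6 did not pass (0.04 ± 0.036, adjusted p = 0.437), or at 0.14 passed with centred arrays. Among SRF and smooth muscle contractile genes 18 of 33 rose and 10 fell, with Pdlim7 (0.56 ± 0.048) and the SRF coactivator Mrtfa (0.49 ± 0.05) up and the smooth muscle genes Mylk (-1.11 ± 0.093) and Myh11 (-0.82 ± 0.074) down.

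Cardiac transcription factor genes as a list were lowered about as often as all genes: 7 of 24 (29.2%) fell, beside 28.8% of all genes, and 4 rose, or 6 and 7 with centred arrays. Tbx5, needed for septation and conduction, read 8.89 and 9.01 with DMSO and 6.95, 6.85 and 6.86 with JQ1 (-2.07 ± 0.052, adjusted p = 3.02e-11), a 4.18-fold fall, and 8.82, 8.90 and 8.95 unstimulated. The ventricular homeobox genes Irx3 (-1.56 ± 0.066) and Irx4 (-1.27 ± 0.06) and the muscle factor Mef2c (-0.98 ± 0.059) fell too. Smyd1, a muscle histone methyltransferase, rose by 0.74 ± 0.056 and Hey2 by 0.69 ± 0.062. The muscle subunit gene of the BAF chromatin remodeller, Smarcd3, fell from 10.49 and 10.55 to 8.73, 8.60 and 8.66 (-1.86 ± 0.051, adjusted p = 5.62e-11).

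Ion channel genes were lowered more often than raised: 15 of 27 fell, 7 of them at least 2-fold, and 3 rose, with a median of -0.33. Without the second DMSO, the second JQ1 or the third JQ1 array 1 rose. Scn4b, a sodium channel beta subunit, read 10.10 and 10.25 with DMSO and 8.57, 8.58 and 8.56 with JQ1 (-1.61 ± 0.064, adjusted p = 8.96e-10), and Kcnj5, of the acetylcholine-gated potassium channel, 8.99 and 9.10 with DMSO and 7.88, 7.91 and 7.91 with JQ1 (-1.14 ± 0.046, adjusted p = 9.14e-10). Kcne4 fell by 1.24 (SE 0.044). Calcium handling genes fell in 13 of 27 cases and rose in 5, or 9 and 6 with centred arrays. Ryr2, the release channel, read 12.49 and 12.51 with DMSO and 11.89, 11.86 and 11.86 with JQ1 (-0.63 ± 0.043, adjusted p = 9.29e-08), and the inositol trisphosphate receptor gene Itpr1 was raised (0.72 ± 0.056). Atp2a2, the calcium pump of the sarcoplasmic reticulum, read 14.07 and 14.12 with DMSO and 13.93, 14 and 13.97 with JQ1 (-0.13 ± 0.037, adjusted p = 0.0113). Its other probe sets disagreed: those with means of 12.38, 10.69 and 6.44 rose, by 0.46, 0.45 and 0.24. That with a mean of 5.67 did not pass (0.16), and the mean over all its probe sets rose by 0.24. The fall did not pass with centred arrays (-0.03) or with the 2 groups alone (-0.13). Gja1, the main ventricular connexin, did not pass (-0.09 ± 0.04, adjusted p = 0.0789), while the desmosome gene Dsg2 fell (-0.82 ± 0.042). Gja1 did pass as lowered with repeated quantile normalization (-0.12), without dim genes (-0.09) and with a variance trend and robust estimation (-0.09).

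Interferon response genes formed the most lowered list by median. Of 33 measured 26 fell, 13 at least 2-fold, and 2 rose (1 without the first DMSO array), with a median of -0.74 beside 0.00 over all genes. Mx2, a dynamin-like antiviral protein, read 8.74 and 8.97 with DMSO and 6.88, 6.32 and 6.08 with JQ1 (-2.42 ± 0.25, adjusted p = 3.78e-06), and 9.38, 9.77 and 9.84 unstimulated. Isg15, the ubiquitin-like modifier, read 11.08 and 11.12 with DMSO and 9.74, 9.50 and 9.21 with JQ1 (-1.62 ± 0.24, adjusted p = 7.75e-05), Ifi44 8.83 and 8.92 with DMSO and 7.51, 7.08 and 7.08 with JQ1 (-1.65 ± 0.15) and Rsad2 9.34 and 9.51 with DMSO and 8.39, 7.67 and 7.24 with JQ1 (-1.66 ± 0.29). Rsad2 had the widest spread among the JQ1 arrays of these genes, and none of them reached the DMSO level. Ifit3 fell to a dim level (-2.06 ± 0.21). Irf3, the transcription factor that responds to viral nucleic acid, rose by 0.39 ± 0.057.

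Chemokine and NF-kappaB genes were lowered more often than raised. Of 25 chemokine genes 17 fell and 0 rose, with a median of -0.57, while 3 rose under either other scaling and 2 without the first DMSO array. Cxcl16 read 8.64, 8.71 and 8.80 unstimulated and 9.74 and 9.77 with DMSO and 8.23, 8.27 and 8.27 with JQ1 (-1.50 ± 0.056, adjusted p = 5.63e-10), and Ccl7, which attracts monocytes, 11.59 and 11.50 with DMSO and 10.43, 10.18 and 10.27 with JQ1 (-1.25 ± 0.079). Il6 read 6.15, 6.38 and 5.89 unstimulated, 8.08 and 8.14 with DMSO and 6.81, 6.55 and 6.55 with JQ1 (-1.47 ± 0.15, adjusted p = 3.32e-06). Its own list, IL-6 family cytokines and signalling, leaned the other way. There 6 of 18 rose (33.3%, beside 25.5% of all genes) and 3 fell (16.7% beside 28.8%), or 7 and 1 with centred arrays. Of 30 NF-kappaB factors and targets 16 fell and 4 rose, with Vcam1 (-0.99 ± 0.093) and Bcl3 (-1.03 ± 0.098) down and the adhesion molecule gene Icam1 up (0.36 ± 0.059). Clcf1, another cytokine of the IL-6 family, stayed dim in all 5 arrays (0.27 ± 0.1, adjusted p = 0.0387). It did not pass without the second DMSO array (0.19), the first JQ1 array (0.26) or the third JQ1 array (0.17). The prostacyclin synthase gene Ptgis read 12.31 and 12.15 with DMSO and 10.37, 10.41 and 10.36 with JQ1 (-1.85 ± 0.05, adjusted p = 4.55e-11), beside 10.47, 10.45 and 10.41 unstimulated, so the JQ1 arrays lie near the unstimulated ones. Complement genes C1r (-0.56 ± 0.059) and C1s (-0.44 ± 0.054) fell, and Cd55, which protects cells from complement, rose from 9.70 and 9.73 to 10.83, 10.57 and 10.70 (0.98 ± 0.067). Tissue plasminogen activator (Plat) rose by 0.70 ± 0.038 and the urokinase receptor gene Plaur fell by 0.63 (SE 0.099).

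Growth factor and matrix genes were lowered more often than raised. In the EGF, FGF, VEGF and IGF families 19 of 43 fell and 5 rose, or 17 and 10 with centred arrays. Igf1 read 9.61 and 9.67 with DMSO and 8.28, 8.18 and 8.15 with JQ1 (-1.44 ± 0.045, adjusted p = 1.42e-10), Fgf16 8.07 and 7.94 with DMSO and 6.39, 6.68 and 6.28 with JQ1 (-1.56 ± 0.092) and Vegfb 11.17 and 11.22 with DMSO and 10.21, 10.13 and 10.12 with JQ1 (-1.04 ± 0.043). In TGF-beta and BMP signalling 11 of 31 fell (35.5%, beside 28.8% of all genes) and 5 rose (16.1% beside 25.5%). With centred arrays 8 fell and 9 rose. The BMP antagonist gene Grem1 read 9.30 and 9.10 with DMSO and 6.89, 6.92 and 6.89 with JQ1 (-2.30 ± 0.08, adjusted p = 2.8e-10) and Tgfb3 11.45 and 11.42 with DMSO and 9.99, 9.95 and 10.01 with JQ1 (-1.45 ± 0.069). Activin subunit genes Inhba (-1.68 ± 0.16) and Inhbb (-1.01 ± 0.083) fell, as did the iron hormone gene Hamp (-1.13 ± 0.074). Of 33 secreted hormone and peptide genes 16 fell and 2 rose, Trh and Penk, or 4 without the first DMSO array and 5 with centred arrays. Bmp7 rose by 0.63 ± 0.062 and the enkephalin gene Penk by 0.61 ± 0.06.

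Collagens and small fibrillar matrix proteins moved little: 13 of 30 fell, none 2-fold, and 1 rose, with a median of -0.11. With centred arrays 7 fell and 3 rose, and without the second DMSO array 2 rose. Dcn went from 12.10 and 12.14 to 11.66, 11.64 and 11.61 (-0.48 ± 0.048) and Col8a1 from 10.06 and 9.80 to 9.12, 9.08 and 9.09 (-0.83 ± 0.066). Matricellular proteins, lysyl oxidases and matrix proteases had 17 of 36 lowered and 6 raised, with Ccn5 at 9.50 and 9.54 with DMSO and 6.39, 6.86 and 6.83 with JQ1 (-2.83 ± 0.11, adjusted p = 9.2e-10), Ccn4 at 8.11 and 8.10 with DMSO and 6.28, 6.49 and 6.15 with JQ1 (-1.80 ± 0.14) and the protease gene Adamts9 raised (1.08 ± 0.055). Integrin genes fell in 7 of 16 cases, such as Itga9 (-0.99 ± 0.064), and rose in 4, such as Itgav (0.40 ± 0.056). With centred arrays 6 fell and 6 rose, and with all probe sets averaged 2 rose.

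Stress programmes differed among themselves. NRF2 antioxidant genes rose in 13 of 22 cases and fell in 5: Gclc read 9.40 and 9.52 with DMSO and 11.34, 11.26 and 11.24 with JQ1 (1.82 ± 0.062, adjusted p = 2.45e-10), Srxn1, which repairs oxidised peroxiredoxin, 9.45 and 9.60 with DMSO and 11.24, 11.06 and 11.09 with JQ1 (1.60 ± 0.068), and Hmox1, haem oxygenase, 10.25 and 10.56 with DMSO and 11.77, 11.71 and 11.68 with JQ1 (1.31 ± 0.079). Heat shock genes rose in 14 of 21 and fell in 5, or 3 without the third JQ1 array and 2 with centred arrays. The inducible chaperone gene Hspa1a read 7.89, 7.95 and 8.08 unstimulated and 9.46 and 9.36 with DMSO and 10.77, 10.65 and 10.61 with JQ1 (1.27 ± 0.069, adjusted p = 1.26e-08). Small heat shock genes went both ways, with Hspb6 at 0.89 ± 0.046 and Hspb1 at 0.62 ± 0.036 against Hspb3 at -1.66 ± 0.038 and Hspb2 at -1.10 ± 0.052. Hspb3 read 11.15 and 11.20 with DMSO and 9.54, 9.48 and 9.53 with JQ1. In the unfolded protein and integrated stress response 8 of 35 rose (22.9%, beside 25.5% of all genes) and 14 fell (40% beside 28.8%). With centred arrays 13 rose and 11 fell. Ddit3, the CHOP factor, rose from 10.12 and 10.19 to 11.34, 11.26 and 11.30 (1.15 ± 0.05), whereas Xbp1 fell by 0.63 (SE 0.040).

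Metabolic genes were lowered more often than raised in several lists, and in some of them the lean nearly went with centred arrays. Of 23 genes of cholesterol synthesis and its control 18 fell and 2 rose, with a median of -0.45. Without the first DMSO, the first JQ1 or the third JQ1 array 1 rose, and with centred arrays 4. Both sterol-regulated transcription factor genes fell, Srebf1 at 9.94 and 9.94 with DMSO and 9.25, 9.11 and 9.22 with JQ1 (-0.75 ± 0.051, adjusted p = 8.84e-08) and Srebf2 at 9.20 and 9.30 with DMSO and 8.51, 8.54 and 8.60 with JQ1 (-0.70 ± 0.049), with the enzyme genes Msmo1 (-0.84 ± 0.057) and Fdft1 (-0.81 ± 0.056), while their escort gene Scap rose (0.64 ± 0.038). Respiratory chain genes fell in 25 of 34 cases by small amounts, with a median of -0.19, but in 16, with 3 raised, when arrays were centred. Ndufs3 of complex I read 12.36 and 12.40 with DMSO and 11.74, 11.78 and 11.78 with JQ1 (-0.62 ± 0.038, adjusted p = 3.29e-08). In fatty acid oxidation and uptake 17 of 36 fell and 8 rose, or 12 and 11 with centred arrays. Among those lowered was Cpt1b, the gate of mitochondrial fatty acid import, at 9.36 and 9.53 with DMSO and 8.06, 8.05 and 7.90 with JQ1 (-1.44 ± 0.082, adjusted p = 1.71e-08). The coactivator gene Ppargc1a (PGC-1 alpha) read 8.80, 9.10 and 9.09 unstimulated, 7.62 and 7.51 with DMSO and dim levels of 5.41, 4.84 and 5.54 with JQ1 (-2.30 ± 0.27, adjusted p = 1.08e-05). Perm1, a muscle regulator of the same pathway, read 9.10 and 9.03 with DMSO and 6.53, 6.64 and 6.69 with JQ1 (-2.44 ± 0.076, adjusted p = 1.35e-10). Of 20 PGC-1, PPAR and ERR regulators 8 fell (40%, beside 28.8% of all genes) and 5 rose (25% beside 25.5%), or 7 and 6 with centred arrays. Glucose uptake and storage genes Slc2a4 (-1.17 ± 0.061) and Gys1 (-1.05 ± 0.076) fell as well. The glycolysis and glycogen list as a whole had 12 lowered and 5 raised of 30, or 9 and 8 with centred arrays, and 3 raised without the first DMSO array.

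Most ribosome biogenesis genes were raised and most cell cycle genes lowered. Of 38 genes of ribosome biogenesis and polyamine synthesis 26 rose and 4 fell (median 0.27). Odc1, the first enzyme of polyamine synthesis, read 11.79 and 11.75 with DMSO and 12.41, 12.38 and 12.42 with JQ1 (0.63 ± 0.043, adjusted p = 8.65e-08), Sms 9.81 and 9.92 with DMSO and 10.90, 10.79 and 10.82 with JQ1 (0.98 ± 0.054) and Polr1e, of RNA polymerase I, 8.67 and 8.76 with DMSO and 9.51, 9.45 and 9.43 with JQ1 (0.75 ± 0.047). Structural ribosomal protein genes rose in 2 of 17 and fell in none, or rose in 8 with centred arrays, in none without the first DMSO array and in 1 without the first JQ1 array. Of 38 cell cycle and mitosis genes 24 fell and 2 rose, with a median of -0.41, and 1 rose without the first DMSO, the first JQ1 or the third JQ1 array. Ube2c, a ubiquitin-conjugating enzyme of mitotic exit, read 9.93 and 10.05 with DMSO and 8.85, 8.93 and 8.98 with JQ1 (-1.07 ± 0.067, adjusted p = 4e-08), and the replication helicase gene Mcm6 9.05 and 9.0 with DMSO and 8.23, 8.21 and 8.20 with JQ1 (-0.82 ± 0.037). Pcna, the sliding clamp, was the other way (0.41 ± 0.036). Ccnd1, cyclin D1, fell from 10.85 and 11.04 to 9.43, 9.39 and 9.51 (-1.51 ± 0.072, adjusted p = 3.96e-09), and the growth arrest gene Gadd45a rose from 11.51 and 11.46 to 12.36, 12.36 and 12.37 (0.87 ± 0.042).

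Autophagy and FOXO-linked genes rose more often than they fell. Lysosome and autophagy genes had 17 raised and 5 lowered of 33, with Ulk1, the kinase that starts autophagy, at 8.0 and 8.13 with DMSO and 9.29, 9.35 and 9.32 with JQ1 (1.25 ± 0.06, adjusted p = 4.16e-09), and Tfeb, a transcription factor of lysosomal genes, lowered (-0.66 ± 0.088). Without the second DMSO array 3 fell. Of 21 muscle atrophy and FOXO genes 9 rose, such as Sesn3 (1.75 ± 0.12), and 4 fell, such as Trim54 above. In the circadian list Bhlhe41, a transcriptional repressor, fell from 11.05 and 11.24 to 9.41, 9.29 and 9.45 (-1.76 ± 0.064, adjusted p = 4.15e-10) and Bmal1 rose from 8.17 and 8.25 to 8.87, 8.81 and 8.83 (0.63 ± 0.054). Several lists leaned neither way or turned with the scaling: chromatin modifiers had 10 raised and 13 lowered, or 16 and 11 with centred arrays, and cyclins, their inhibitors and p53 targets 12 and 11, or 13 and 6. The survival gene Cflar, an inhibitor of caspase 8, fell by 1.26 (SE 0.065) and Ezh2, the Polycomb methyltransferase, rose by 0.78 ± 0.066.

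**Figure D3:**
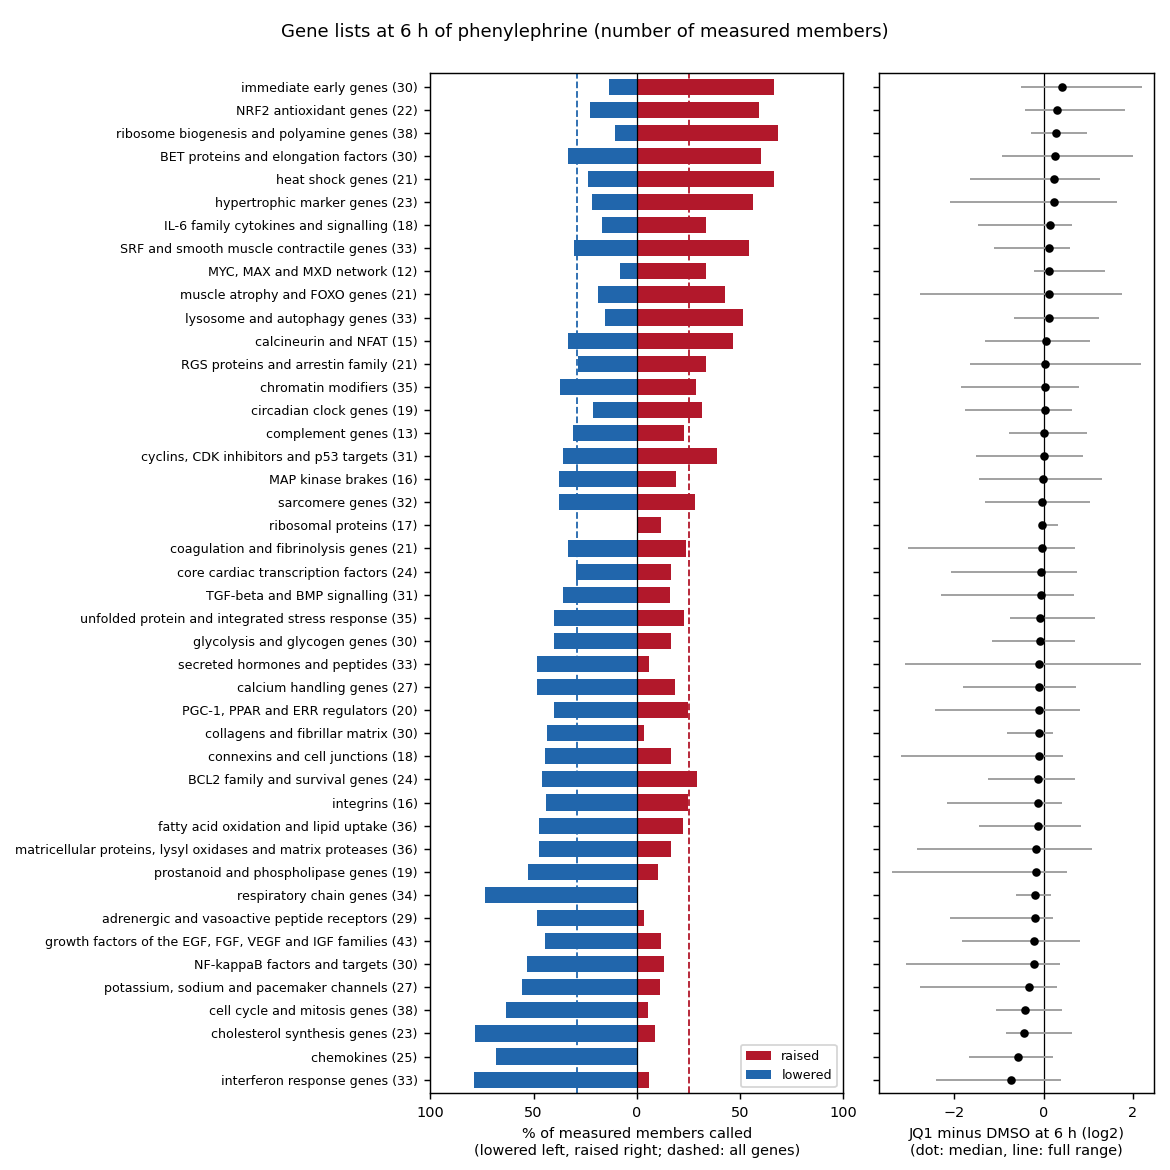
Left, the share of measured members of each of 44 gene lists of 12 or more members that was raised (red, right) or lowered (blue, left) at 6 h, with dashed lines at the shares over all genes, 25.5% and 28.8%. Right, the median (dot) and full range (line) of the log2 differences, JQ1 minus DMSO; interferon response genes stand lowest at -0.74 and immediate early genes highest at 0.42, and 2 short histone lists are not drawn.

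The labelled cell type was borne out by its markers, and genes of other cell types were present. All 19 measured cardiomyocyte markers lay above the dim limit, with a mean level of 13.25 to 13.28 on the DMSO arrays and 13.15 to 13.18 on the JQ1 arrays. Of these 3 rose and 8 fell, or 8 and 5 with centred arrays, and 1 rose without either DMSO array. Tnnt2, cardiac troponin T, read 14.38 and 14.38 with DMSO and 14.53, 14.48 and 14.50 with JQ1 (0.13 ± 0.038, adjusted p = 0.0132), a call lost without either DMSO array. All 18 fibroblast markers lay above the dim limit in some group, and their mean level was 10.32 on both DMSO arrays and 9.92 to 9.95 on the JQ1 arrays. Of these 11 fell and none rose, or 9 and 2 with centred arrays. Pdgfra, a receptor that marks fibroblasts, read 10.12 and 10.17 with DMSO and 8.29, 8.24 and 8.35 with JQ1 (-1.86 ± 0.062, adjusted p = 2.31e-10), and Ddr2 10.15 and 10.10 with DMSO and 9.02, 9.09 and 8.99 with JQ1 (-1.09 ± 0.057). Smooth muscle and pericyte markers, 13 of 15 above the limit, fell in 11 cases and rose in 3. Their mean went from 9.05 on both DMSO arrays to 8.60 to 8.62 on the JQ1 arrays.

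Markers of the remaining types were dimmer. Of 15 endothelial markers 10 were dim in every group, Pecam1 and Vwf among them, with a mean of 5.71 to 5.79 with DMSO and 5.54 to 5.65 with JQ1. Macrophage and leukocyte markers were dim in every group for 8 of 17, Ptprc and Itgam among them, at 6.21 to 6.29 and 6.04 to 6.09. Schwann cell and neuron markers were dim for 8 of 12 (5.82 to 5.93 and 5.77 to 5.86), epicardial and mesothelial markers for 2 of 9 (7.03 to 7.12 and 6.78 to 6.83), and red blood cell markers for 4 of 6 (5.67 to 5.77 and 5.60 to 5.77). On the JQ1 arrays the mean lay lower without overlap in every list but the Schwann cell and neuron and the red blood cell lists. The array medians were lower too. Fibroblast and smooth muscle markers fell most, beside the matrix, growth factor, chemokine and interferon genes above, and their part in those falls was not tested. In such bulk RNA fewer cells of a type and less RNA per cell cannot be told apart.

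**Figure D4:**
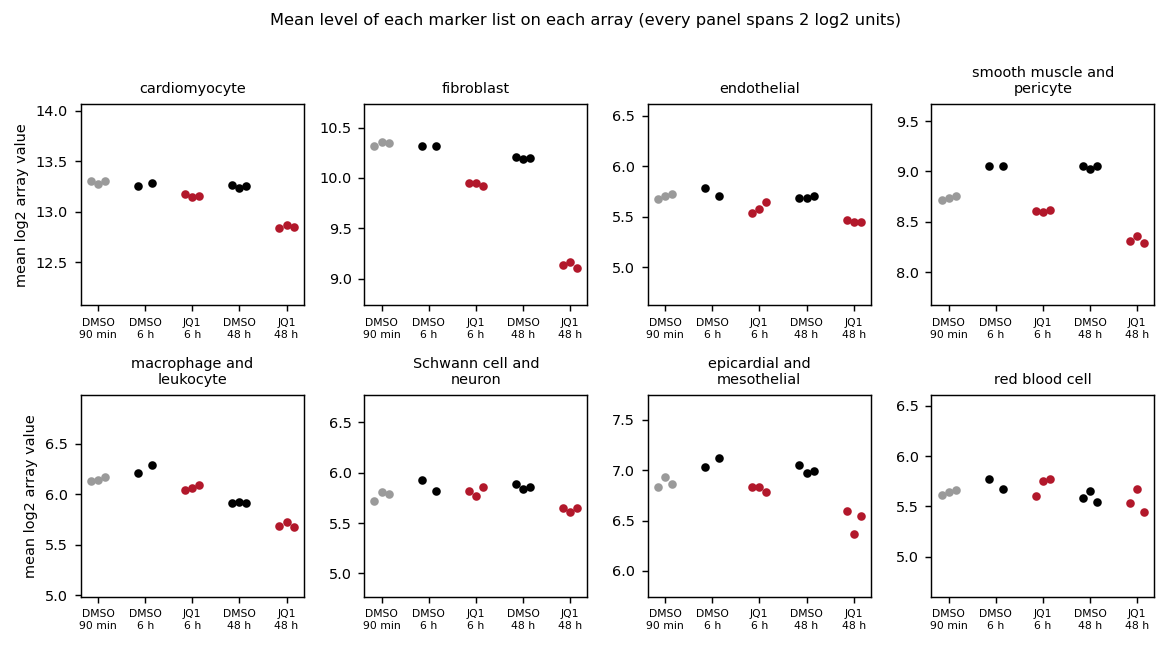
Mean log2 array value over each marker list (y axis, every panel spanning the same range) on each of the 14 arrays, by group: grey for unstimulated DMSO, black for DMSO with PE and red for JQ1 with PE. At 6 h the JQ1 arrays lie below the DMSO arrays for the fibroblast list (9.92 to 9.95 against 10.32) and the smooth muscle and pericyte list (8.60 to 8.62 against 9.05). They lie below by less for the cardiomyocyte, endothelial, macrophage and leukocyte, and epicardial and mesothelial lists. For the Schwann cell and neuron list and the red blood cell list they overlap. Values are not centred on the array medians, which were lower with JQ1.

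At 48 h of PE, measured on 6 other arrays, JQ1 changed 7858 genes (59.6%), 3957 raised (30%) and 3901 lowered (29.6%), with 981 at least 2-fold (7.44%): 185 raised (1.40%) and 796 lowered (6.04%). With centred arrays 5590 were raised and 2989 lowered. The effects at both times correlated at r of 0.70 across genes (Spearman's rho 0.65), a description over genes that are not independent and share their probe sets. Of the 163 genes raised at least 2-fold at 6 h, 147 (90.2%) were called in the same direction at 48 h, 76 of them at least 2-fold. Of the 490 lowered, 462 (94.3%) were, 298 of them at least 2-fold. The difference between the effects, tested as an interaction in the same fit, passed for 5111 genes (38.8%), 2695 higher at 48 h (20.4%) and 2416 lower (18.3%). It passed for 106 (65.0%) of the 163 and 329 (67.1%) of the 490. Every 6 h effect rests on 2 DMSO arrays and every 48 h effect on 3.

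Some falls at 6 h were smaller, not called or turned into rises at 48 h. G0s2, an inhibitor of triglyceride lipase, read 11.83 and 11.91 with DMSO and 9.52, 9.67 and 9.55 with JQ1 at 6 h (-2.29 ± 0.066) and 10.72, 10.65 and 10.83 with DMSO and 11.61, 11.69 and 11.71 with JQ1 at 48 h (0.93 ± 0.059), a difference of 3.22 ± 0.089, adjusted p = 7.08e-10. Lrrc10, a cardiac leucine-rich repeat protein, read 8.87 and 8.98 with DMSO and 6.52, 6.61 and 6.54 with JQ1 at 6 h (-2.37 ± 0.07) and rose at 48 h (0.32 ± 0.063, adjusted p = 0.000683). Stc1 went from -3.11 ± 0.067 to -0.60 ± 0.06, Ppargc1a from -2.30 ± 0.27 to 0.21 ± 0.24 and Tmem196 from -2.89 ± 0.12 to -0.50 ± 0.1. The interaction of these 5 was the most positive of all genes, with Tmem196 at 2.40 ± 0.16, adjusted p = 1.69e-07.

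Several rises at 6 h were not called or turned into falls at 48 h. Lmcd1 went from 1.64 ± 0.1 to -0.74 ± 0.09 (difference -2.38 ± 0.14, adjusted p = 5.38e-08), Flnc from 1.17 ± 0.05 to -0.46 ± 0.045 (-1.62 ± 0.067, adjusted p = 4.76e-09), Hbegf from 0.82 ± 0.048 to -0.71 ± 0.043 and Myc from 1.37 ± 0.087 to -0.25 ± 0.078 (-1.62 ± 0.12, adjusted p = 4.2e-07). Atf3 went from 2.20 ± 0.089 to 0.07 ± 0.08, adjusted p = 0.499. Nppb, not called at 6 h, was lower at 48 h (-0.90 ± 0.041, adjusted p = 1.09e-09), with a difference of -0.97 ± 0.062, adjusted p = 1.43e-07. Hypertrophic marker genes numbered 13 raised and 5 lowered at 6 h and 2 and 16 at 48 h, with medians of 0.24 and -0.43, and immediate early genes 20 and 4 against 11 and 11. No test was made of these lists.

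Other falls were larger at 48 h. Aspn, a small leucine-rich matrix proteoglycan, read 8.86 and 8.68 with DMSO and 8.20, 7.97 and 8.04 with JQ1 at 6 h (-0.70 ± 0.12), and 9.37, 9.32 and 9.31 with DMSO and 4.23, 3.73 and 4.04 with JQ1 at 48 h (-5.33 ± 0.11), a difference of -4.63 ± 0.17, adjusted p = 2.62e-09. Its 48 h JQ1 arrays are dim, as are those of Glod5 below, so the size of both falls is uncertain. The M-band gene Myom2 went from -0.94 ± 0.094 to -4.44 ± 0.084, Glod5 from -1.18 ± 0.1 to -4.55 ± 0.092, Fndc1 from -0.50 ± 0.076 to -3.37 ± 0.068 and Wfdc1 from -1.76 ± 0.054 to -4.52 ± 0.048. Cell cycle and mitosis genes had 24 of 38 lowered at 6 h (median -0.41) and 37 at 48 h (-1.64), interferon response genes 26 and 28 of 33 (medians -0.74 and -1.41), and collagens and fibrillar matrix genes 13 and 25 of 30. For Brd2 the effects did not differ past the threshold: 2.0 ± 0.054 at 6 h, 2.17 ± 0.048 at 48 h and a difference of 0.16 ± 0.073, adjusted p = 0.0957. Lrrc4b fell by the same measured amount at both times (-2.77 ± 0.078 and -2.77 ± 0.07).

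**Figure D5:**
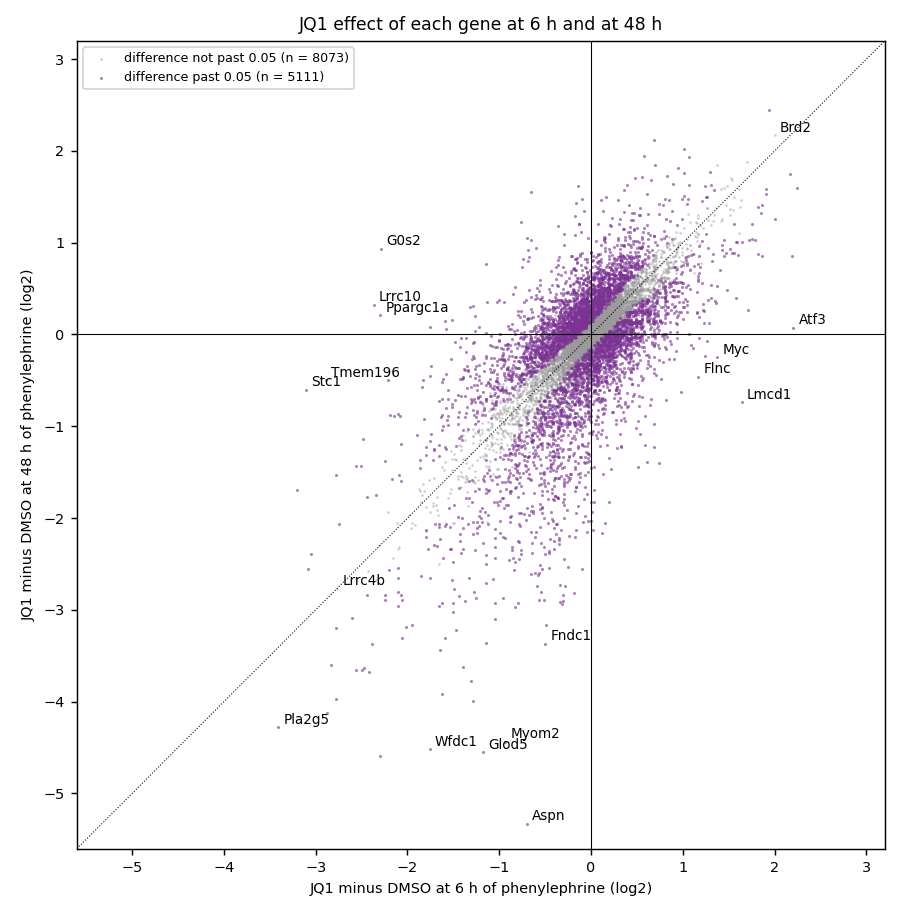
JQ1 minus DMSO (log2) at 6 h (x axis) and at 48 h (y axis) for each of 13184 genes. Purple marks the 5111 genes whose effects differed past an adjusted p of 0.05, and the dotted diagonal marks equal effects; G0s2 and Lrrc10 lie above the diagonal and Aspn, Myom2 and Lmcd1 below it.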

How the data were processed

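The values are log2 expression per probe set on an Affymetrix rat array, as the authors deposited them. The tool limma is named in the submitters' processing notes, with no role given. Summarisation and normalization are not given in the sources used here, so no background, scan or batch value was at hand. Of 20223 probe sets 18510 had 1 gene symbol, and those with several (305) or none (1402) and 6 controls were left out. Symbols were updated through gene identifiers (18461 matched). The brightest probe set stood for a gene. Group means over all 14 arrays were fitted with limma 3.58.1 (lmFit and eBayes, R 4.3.3, 9 residual degrees of freedom). JQ1 minus DMSO at 6 h, the same at 48 h and their difference were tested 2-sided, with Benjamini-Hochberg adjustment over 13184 genes and a threshold of 0.05. The script was tested on simulated data. The median SE was 0.068 at 6 h, and the number of arrays limits the precision.

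Named genes are a fixed panel, the largest called members of each list and the 5 largest differences between times in each direction. Also named are the 15 largest called changes in each direction among genes whose DMSO and JQ1 arrays at 6 h did not overlap. Any other is said to be so. Members and gene lists were chosen with earlier results of these data known, so no list was tested. Replicate numbers were not used to pair the arrays in the main fit. The alternatives tried were the probe set per gene, the scaling, a filter on dim genes, the spread estimate, the arrays in the fit, a replicate block, a minimum change and leaving out each array.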

Additional observations from a re-analysis of the deposited data

Results flagged for a closer look

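Only the 368 genes picked by the naming rules above were screened here, not all 13184. For 18 of them the effect of JQ1 at 48 h differed from that at 6 h by at least 4-fold. All 18 passed the threshold in the test of the difference in limma, and the minimum size was chosen after the data were seen. Lower at 48 h than at 6 h, by the log2 difference between the effects, were Aspn (-4.63), Myom2 (-3.50), Glod5 (-3.38), Fndc1 (-2.87), Wfdc1 (-2.76), Mfap5 (-2.38), Lmcd1 (-2.38), Isg15 (-2.30), Grem1 (-2.29), Ogn (-2.15), Atf3 (-2.14) and Pla2g2a (-2.06). Of these Aspn, Fndc1, Mfap5 and Ogn are extracellular matrix genes, which had fallen by 0.50 to 0.70 on the log2 scale at 6 h. The JQ1 arrays at 48 h of Aspn, Glod5, Mfap5 and Grem1 are dim, so these sizes are uncertain. Higher at 48 h were G0s2 (3.22), Lrrc10 (2.69), Stc1 (2.52), Ppargc1a (2.51), Tmem196 (2.40) and Pik3ip1 (2.21), with dim 6 h JQ1 arrays for Ppargc1a. No sample was tested as an outlier, since each group holds 2 or 3 arrays.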

How the results depend on the processing

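At 6 h the counts of raised, of lowered and of at least 2-fold changed genes stayed within 1.5 times their main values under every alternative run but one, the test of a minimum change. Tested against a minimum change of 1.2-fold, 1238 genes were raised and 1875 lowered at 6 h, 1641 and 2152 at 48 h, and 826 higher and 996 lower in the difference between times. With 1 array of the comparison left out in turn, 6491 to 6794 genes passed at 6 h; the lone DMSO array left in 2 of these fits is assumed to vary like the other groups. The mean of all probe sets gave 6920, a variance trend with robust estimation 7302, the 2 groups alone 6517 and the 9634 genes that were not dim 6848. Centred arrays changed the balance, with 38.1% of calls lowered, and repeated quantile normalization gave 46.2%, 4015 raised and 3451 lowered. Atp2a2 was the named gene that reversed, to 0.24 with the mean of its probe sets. Of 368 named genes tested, 350 kept their side of the threshold without the first DMSO array and 351 without the second. The fit with replicate number as a block called 6929 genes at 6 h, 6800 of them also called without it. Same-numbered arrays did not deviate together (r of -0.16 and -0.04 at 6 h, and 0.02, 0.05 and -0.08 at 48 h). With 2 or 3 arrays in a group these values cannot settle whether the numbers pair the arrays. Of 3274 further probe sets of called genes, 1448 were called in the same direction and 141 in the opposite one. The rest were not called: 1096 differed in the same direction, and 589 in the opposite one or not at all when rounded. Dim levels bound what can be said of falls that ended there.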
